A study of Homo sapiens with 20 samples.

Results

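The genes described here are 40 interferon-stimulated genes, a list chosen by name, whose transcripts were read on 20 arrays in 5 cell lines of T-ALL, the acute lymphoblastic leukaemia of human T cells. Of the 40, 39 had at least one probe set that named them alone, and all 39 passed the filter on low values, out of 13787 genes tested of 19775 named. STAT2 was not analysed here. The lines were T-ALL1, KOPT-K, CEM, DND41 and HPB-ALL, established cultures grown from leukaemic T cells. For 16 h each line received either a control peptide or an inhibitory one, NBD, which carries the NEMO-binding domain and blocks canonical NF-kB activity by keeping the regulatory subunit of the IkB kinase apart from its catalytic subunits. Each of the 10 groups (5 lines, control or NBD peptide) had 2 arrays. No label mentions an added interferon or a virus, so the levels are those of the lines under peptide alone. The labels give the dose as 100 µM in one place and 100 mM in another, and nothing below rests on it.

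Interferons bind receptors whose Janus kinases phosphorylate STAT proteins, and the STAT complex that contains IRF9 enters the nucleus and binds a short element, the interferon-stimulated response element (ISRE), in front of its target genes. The products slow viruses at many steps: IFITM proteins at entry, OAS enzymes, EIF2AK2 and the IFIT proteins at the level of RNA and translation, MX proteins at replication, and BST2 at release. ISG15 is attached to other proteins by HERC5 and taken off by USP18, which also dampens the receptor, and IRF7 and IFIH1 feed back on interferon production. NF-kB takes part in inducing the interferon beta gene, and some of these genes carry NF-kB sites of their own.

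Promoter windows of 300 bases, 250 before and 50 after each start, were held by the RefSeq table (build GRCh38.p14) for 32 of the 40 genes, as 43 windows. No window was given for IFITM2, MX2, OAS2, OASL, IFIT2, IRF7, USP18 and TRIM22. An ISRE core, searched on both strands as GAAA, a pair of free bases and GAAA, lay in 27 of the 43 windows (62.8%) and in windows of 23 of the 32 genes (71.9%). Of all 35097 windows there, 1255 held it (3.58%), and 4.38% of 27305 genes did. An NF-kB site, searched on both strands as GGG, a pair of free bases and TTTCC, lay in 2 of the 43 windows (4.65%), those of IFIH1 and OAS3, and in 671 of all windows (1.91%). Matches of the 2 motifs did not overlap in either gene. The letters are a description of the windows, and a match is not a measured binding site.

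5 windows are shown because the values below turn on these genes: IFI35 and IFITM1, which fell with NBD, OAS3, which rose in one line and holds both motifs, and the neighbours IFITM3 and DTX3L, whose levels set lines apart. All are written in the direction of transcription in lower case, with ISRE cores and the NF-kB site in capitals. The windows are chr11:313790-314089 (plus strand) for IFITM1, chr11:320811-321110 (minus strand) for IFITM3, chr12:112938224-112938523 (plus strand) for OAS3, chr3:122564088-122564387 (plus strand) for DTX3L and chr17:43006534-43006833 (plus strand) for IFI35.
IFITM1: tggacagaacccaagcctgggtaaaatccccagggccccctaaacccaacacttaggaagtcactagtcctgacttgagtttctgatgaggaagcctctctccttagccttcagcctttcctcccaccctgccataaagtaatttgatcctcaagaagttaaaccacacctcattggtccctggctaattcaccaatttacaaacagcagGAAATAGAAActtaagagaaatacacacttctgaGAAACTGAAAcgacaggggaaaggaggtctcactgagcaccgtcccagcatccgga
IFITM3: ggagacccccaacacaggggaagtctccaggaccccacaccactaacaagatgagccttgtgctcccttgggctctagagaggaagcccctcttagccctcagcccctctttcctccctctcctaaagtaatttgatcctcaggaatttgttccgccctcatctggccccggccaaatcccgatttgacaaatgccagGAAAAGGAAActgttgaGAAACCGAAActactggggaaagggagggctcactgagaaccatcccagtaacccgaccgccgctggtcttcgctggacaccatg
OAS3: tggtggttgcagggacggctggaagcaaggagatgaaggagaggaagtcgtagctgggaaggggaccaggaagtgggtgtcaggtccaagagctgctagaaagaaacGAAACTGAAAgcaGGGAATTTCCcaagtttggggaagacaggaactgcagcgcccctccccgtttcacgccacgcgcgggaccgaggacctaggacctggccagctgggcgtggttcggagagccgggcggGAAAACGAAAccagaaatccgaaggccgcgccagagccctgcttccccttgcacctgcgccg
DTX3L: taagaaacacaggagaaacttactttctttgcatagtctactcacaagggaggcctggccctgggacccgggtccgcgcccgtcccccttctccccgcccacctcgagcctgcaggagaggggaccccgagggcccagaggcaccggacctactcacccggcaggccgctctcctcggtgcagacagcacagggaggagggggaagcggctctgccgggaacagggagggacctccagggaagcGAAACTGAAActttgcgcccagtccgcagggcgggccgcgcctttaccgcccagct
IFI35: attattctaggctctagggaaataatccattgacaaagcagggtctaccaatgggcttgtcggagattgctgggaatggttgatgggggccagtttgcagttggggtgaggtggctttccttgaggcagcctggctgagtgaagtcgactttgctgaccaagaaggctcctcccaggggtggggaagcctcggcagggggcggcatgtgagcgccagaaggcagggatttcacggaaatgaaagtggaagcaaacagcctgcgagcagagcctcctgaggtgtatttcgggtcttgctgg
The IFITM1 window held 2 ISRE cores, 40 and 6 bases before the start, and that of IFITM3 2 cores at 52 and 35 bases before it. In OAS3 the cores began 143 and 12 bases before the start, and the NF-kB site, GGGAATTTCC, at 130 bases before it, between them. The single core of DTX3L, 6 bases before its start, is the same piece of DNA (chr3:122564332-122564341) as the single core in the window of PARP9, the partner gene transcribed from the opposite strand. The IFI35 window held no match of either motif.

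Many members are neighbours in the genome. No protein-coding gene lies between IFI44L and IFI44, between IFIT2 and IFIT3, between IFIT1 and IFIT5, among IFITM2, IFITM1 and IFITM3, among OAS1, OAS3 and OAS2, between CMPK2 and RSAD2, between MX2 and MX1, between PARP9 and DTX3L, between HERC6 and HERC5, or between SAMD9 and SAMD9L. Members of one such cluster may therefore not be independent of each other, which was not tested. Closely related copies can also share probes: IFITM2 and IFITM3 are each read by a probe set of the kind that may cross-hybridise within a family.

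The arrays of one group correlated at 0.992 to 0.998 across genes, and the median SD of the members between the 2 arrays was 0.05 to 0.17 on the log2 scale, largest in the T-ALL1 control group. Those 2 T-ALL1 control arrays also had the largest log2 differences between the 3' and 5' actin probe sets, 3.16 and 2.05 (0.73 to 1.81 elsewhere), and T-ALL1 values below are read beside that. T lineage markers were high in every line, with array means over 11 genes of 8.86 to 10.70 (log2), although CD2 was at 4.14 in DND41 and CD1E at 2.93 in T-ALL1. Of 8 myeloid markers 6, among them CD14 and LYZ, did not pass the filter, and the other two were near it, CSF1R with control means of 4.55 to 5.64 (log2) and ITGAM at most 5.86 on any array. The mean over 7 B cell markers was 6.79 to 7.17 on the DND41 arrays and lower on the other arrays. EBF1 was at 9.17 in DND41 (3.33 to 3.56 in the other control groups), CD79A at 11.46 (5.14 to 6.53) and BLK at 7.56 (4.41 to 5.85). MS4A1 stayed below the filter everywhere. The control means of CR2, CD79B and PAX5 were not highest in DND41. That of CR2 was 9.22 in KOPT-K and 7.45 in HPB-ALL against 7.19 in DND41. That of CD79B was 6.52 in CEM against 6.12, and that of PAX5, near the filter, was 5.22 in KOPT-K against 4.93. The part of these genes in the DND41 values was not tested.

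Under the control peptide most of the interferon-stimulated genes, like most genes tested, reached the filter in each of the 5 lines. Taking an intensity of 31.96 (log2 5, the median of all deposited values) as the level to reach, the control mean reached it for 39 of 39 members in DND41. It did so for 37 in CEM and KOPT-K (all but IFI27 and IFI44L), for 37 in HPB-ALL (all but IFI44L and TRIM22) and for 34 in T-ALL1, where MX1, OAS1, IFI27, IFI44L and RSAD2 stayed below. Of all genes tested, 87.8% reached it in CEM, 86.5% in DND41, 87.6% in HPB-ALL, 90.2% in KOPT-K and 87.6% in T-ALL1, so these counts show nothing particular to the members. The median control level of the members was 8.11 in CEM, 8.61 in DND41, 7.72 in HPB-ALL, 8.80 in KOPT-K and 7.63 in T-ALL1 (log2). Over all genes tested the medians were 7.89, 7.78, 7.78, 7.92 and 8.01 in the same order. The deposited values of T-ALL1 and KOPT-K appear to have been normalized apart from those of the other 3 lines, so levels were tested only within each set of lines.

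**Figure D1:**
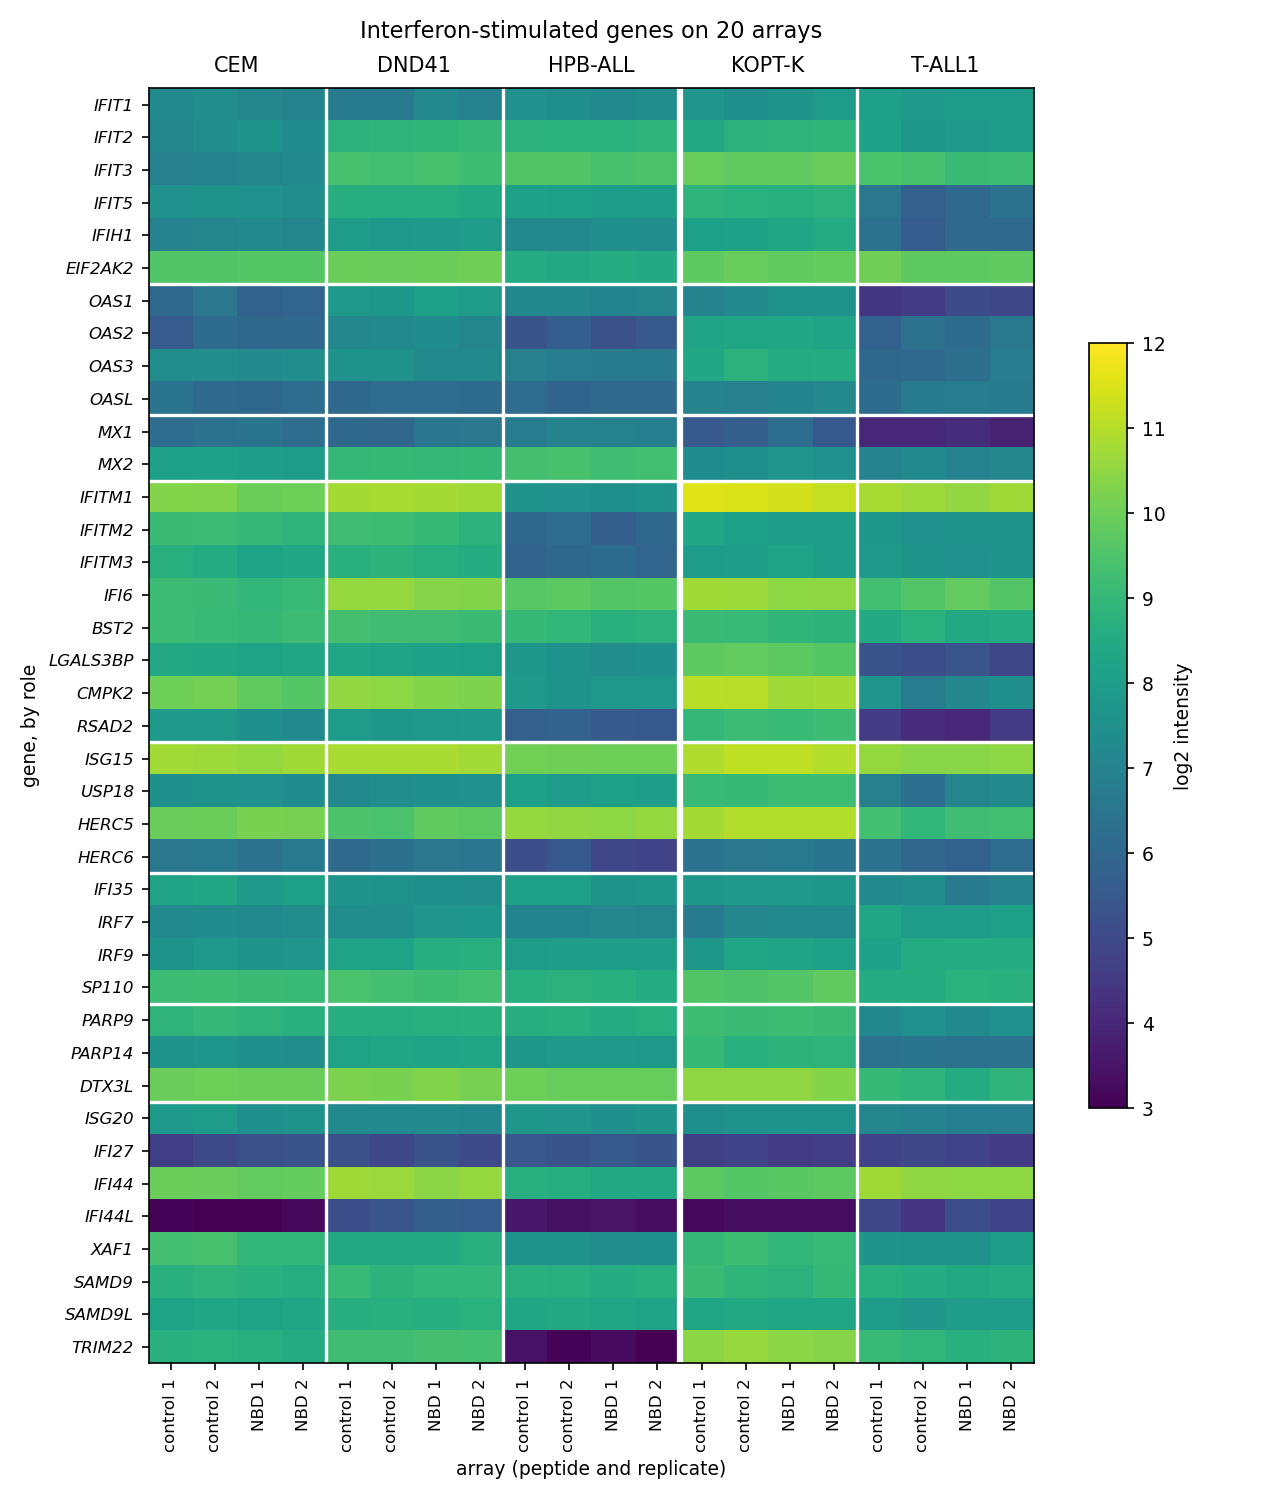
Log2 intensity of 39 interferon-stimulated genes (rows, grouped by role) on each of 20 arrays (columns, by line, peptide and replicate), on a colour scale of 3 to 12; the thick white line parts the 2 sets of lines that appear to have been normalized separately. Differences between lines stand out, such as TRIM22 in HPB-ALL (control arrays 3.44 and 3.10), while the 4 arrays of a line look much alike.

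Among CEM, DND41 and HPB-ALL, the control level differed for 35 of 39 members by limma's moderated F-test at an adjusted p under 0.05. The share over all genes tested was 61.9%, and the 4 members that did not pass were OASL, IRF7, DTX3L and SAMD9. DND41 had the highest mean of the 3 lines for 25 members. The lowest mean was in HPB-ALL for 19, in CEM for 13 and in DND41 for 7. The same order was not counted over all genes. DND41 exceeded HPB-ALL for 23 members and lay below it for 8 (all genes, 23.8% and 23.7%), with a median difference of 0.485 over the members and 0.003 over all genes. CEM exceeded HPB-ALL for 15 members and lay below it for 11 (all genes, 25.3% and 23.6%). CEM exceeded DND41 for 6 and lay below it for 16 (all genes, 22.2% and 19.8%).

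TRIM22, a ubiquitin ligase that restricts several viruses, had the largest range of the 3 lines. Its log2 intensity was 3.44 and 3.10 on the HPB-ALL control arrays, 8.73 and 8.74 in CEM, and 9.25 and 9.24 in DND41. The HPB-ALL arrays lay below the filter and far from the others, with or without NBD (3.26 and 2.98 with it), so the fold is that of the deposited values and not of a well-measured low level. DND41 exceeded HPB-ALL by 5.98 ± 0.12 (SE, log2), 63-fold, with a limma adjusted p of 4.19e-14, and CEM exceeded it by 5.46 (1.56e-13).

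The IFITM genes, small membrane proteins that block fusion of virus and cell, were low in HPB-ALL as a cluster. IFITM1 was at 7.59 and 7.56 on the HPB-ALL control arrays, 10.32 and 10.29 in CEM and 10.77 and 10.83 in DND41. IFITM2 was at 6.01 and 6.20 in HPB-ALL, 9.15 and 9.16 in CEM, and 9.23 and 9.20 in DND41. HPB-ALL was low for both on every array, and CEM and DND41 lay nearer to each other. DND41 exceeded HPB-ALL by 3.22 ± 0.08 for IFITM1 (9.33-fold, limma adjusted p = 7.19e-13) and by 3.11 ± 0.12 for IFITM2 (8.66-fold, 5.70e-11). IFITM3 differed by 2.84 ± 0.10 (7.18-fold, 1.52e-11). CEM and DND41 differed for IFITM1 by -0.49 (2.84e-04), while IFITM2 and IFITM3 did not pass the test between them.

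The wider group of membrane-associated and linked genes also set DND41 and HPB-ALL apart. All 8 of its members (IFITM1, IFITM2, IFITM3, BST2, IFI6, RSAD2, CMPK2 and LGALS3BP) were higher in DND41 than in HPB-ALL, by 0.31 to 3.22. CMPK2, a mitochondrial nucleotide kinase, and its genomic neighbour RSAD2 (viperin, which makes a chain-terminating nucleotide) exceeded HPB-ALL by 2.79 ± 0.20 and 2.07 ± 0.16 (limma adjusted p = 4.07e-08 and 8.48e-08). BST2, which tethers budding virions, differed least, by 0.31 ± 0.09 (0.0129).

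Of the IFIT genes, whose products bind foreign RNA, IFIT3 set CEM apart, and the others did so in part or not at all. IFIT3 was at 6.92 and 7.02 on the CEM control arrays, 9.38 and 9.28 in DND41, and 9.57 and 9.54 in HPB-ALL. CEM was the low line, by -2.36 against DND41 (limma adjusted p = 2.51e-11) and by -2.58 against HPB-ALL (9.72e-12). The neighbour IFIT2 differed the same way, by -1.56 (5.87e-07) and -1.50 (7.36e-07). A second IFIT2 probe set gave -0.54 and -0.58 and was not called (adjusted p = 0.173 and 0.12 in limma over all probe sets). IFIT1, in the same cluster, did not follow: it was higher in CEM than in DND41, by 0.65 (7.03e-04), and a difference from HPB-ALL was not called. For IFIT5, CEM minus DND41 was -1.02 and CEM minus HPB-ALL was -0.53 (limma adjusted p = 5.00e-04 and 0.0293). A second IFIT5 probe set gave -0.29 and 0.40 (adjusted p = 0.0429 and 0.00642 in limma over all probe sets). Its direction against HPB-ALL therefore depends on the probe set. Of the 6 genes of the IFIT and RNA-binding group, CEM lay below DND41 for 5 and above it for 1.

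Other groups were mixed. OAS1 and OAS2, which make the oligoadenylates that switch on RNase L, were lower in CEM than in DND41. CEM minus DND41 was -1.49 and -1.38 (limma adjusted p = 5.43e-07 and 1.26e-04), and neither OAS3 nor OASL passed the test between those lines. Further OAS2 probe sets gave -1.13 and -0.12 (adjusted p = 0.00276 and 0.577 in limma over all probe sets), so its size depends on the probe set. Both MX genes, GTPases that trap viral nucleoproteins, ran against the general order and were higher in HPB-ALL than in DND41, with DND41 minus HPB-ALL at -0.92 for MX1 and -0.35 for MX2 (limma adjusted p = 9.53e-04 and 0.00442). HERC5 and USP18, the ligase and the protease for ISG15, were likewise higher in HPB-ALL, with differences of -1.10 and -0.70 (5.92e-07 and 0.00152), whereas ISG15 itself was lower there by 0.78 (6.37e-06). IFI44L was higher in DND41 than in CEM by 2.21 (2.98e-08) and than in HPB-ALL by 1.76 (2.90e-07), both other lines lying below the filter. Of the transcription factors, IRF9 was higher in DND41 than in CEM by 0.46 (0.0204), and a difference from HPB-ALL was not called.

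T-ALL1 expressed most of these genes at lower levels than KOPT-K. Of 39 members, 30 were lower in T-ALL1 and 4 were higher at a limma adjusted p under 0.05 (all genes, 23.6% lower and 30.6% higher), with a median difference of -0.650 over the members and 0.006 over all genes. Group by group, T-ALL1 was lower for 4 of 4 OAS genes, 2 of 2 MX genes and 3 of 3 of PARP9, PARP14 and DTX3L. It was also lower for 7 of 8 membrane-associated and linked genes and 3 of 4 of the ISG15 group. The counts were 4 of 6 in the IFIT and RNA-binding group, 5 of 8 in the remaining genes and 2 of 4 in the transcription group. The 4 members higher in T-ALL1 lay in the last 3 of these groups, IFIT1 in the first of them, IFI44 and IFI44L in the second and IRF7 in the transcription group. The T-ALL1 control arrays are those with the large actin difference. On the NBD arrays, where it was 1.07 and 0.99 in T-ALL1 and 0.97 and 0.73 in KOPT-K, 32 members were lower in T-ALL1 and 4 higher. The share over all genes was not counted on those arrays, so this count has no background beside it.

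RSAD2 was at 4.58 and 4.15 on the T-ALL1 control arrays and at 9.0 and 9.17 on those of KOPT-K. LGALS3BP, a secreted glycoprotein that binds galectins, was at 5.35 and 5.15 in T-ALL1 and at 9.77 and 9.85 in KOPT-K. CMPK2 was at 7.69 and 6.78 in T-ALL1 and at 11.08 and 11.03 in KOPT-K. For all 3 genes the T-ALL1 arrays lay far below those of KOPT-K, and the 2 T-ALL1 values of CMPK2 were also well apart from each other. The differences were -4.72 ± 0.16 for RSAD2 (26.3-fold higher in KOPT-K, limma adjusted p = 9.23e-12), -4.56 ± 0.12 for LGALS3BP (23.6-fold, 7.11e-13) and -3.82 ± 0.20 for CMPK2 (14.1-fold, 1.22e-09). The T-ALL1 arrays of RSAD2 lay below the filter, so its fold and its place in the order are those of the deposited values and not of a well-measured low level. On the NBD arrays the differences were -4.82, -4.56 and -3.43.

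**Figure D2:**
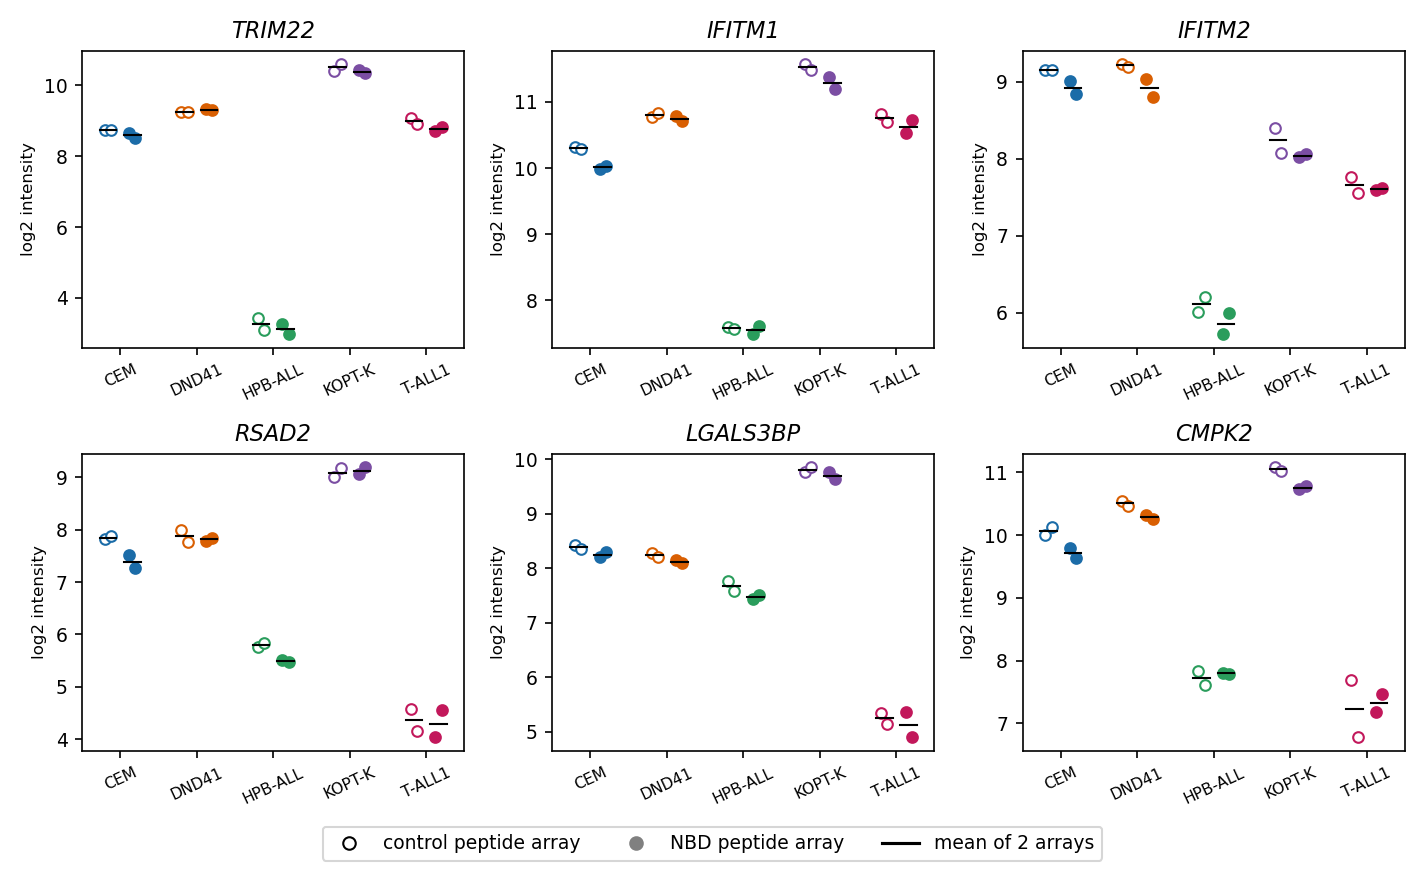
Log2 intensity of the genes with the largest differences between lines, on each array of 5 lines (open circles, control peptide; filled circles, NBD peptide; bars, mean of 2 arrays); each panel has its own axis, which does not start at 0. TRIM22, IFITM1 and IFITM2 are low in HPB-ALL, and RSAD2, LGALS3BP and CMPK2 are low in T-ALL1; CMPK2 and RSAD2 are also lower in HPB-ALL than in CEM and DND41.

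Further members lower in T-ALL1 included OAS1 (-2.66), OAS3 (-2.53) and OAS2 (-2.18), IFIT5 (-2.64), the ADP-ribosyltransferase PARP14 (-2.46), USP18 (-2.46) and the RNA sensor IFIH1 (-2.12), with limma adjusted p-values of 4.48e-11 to 9.31e-07. The T-ALL1 mean of OAS1, 4.51, lay below the filter, and its difference is read as that of RSAD2 is. PARP9 and DTX3L, which share the promoter match shown above and whose proteins form a complex, differed by -1.79 ± 0.11 and -1.57 ± 0.10. The members higher in T-ALL1 were IRF7, a driver of interferon production (1.21 ± 0.13, 2.69e-06), IFI44 (0.92 ± 0.08, 1.52e-07), IFIT1 (0.38 ± 0.12, 0.019) and IFI44L (1.41 ± 0.15, 2.45e-06), the last with control means below the filter in both lines (4.68 in T-ALL1 and 3.27 in KOPT-K). On the NBD arrays IFIT1 was no longer called (0.17, 0.273), and IRF9 was called higher (0.41, 0.0273). IFITM3, IFI27, IRF9, HERC6 and EIF2AK2 did not pass on the control arrays, the last with a difference of 0.07 ± 0.09. For PARP9 the other probe set tested gave -0.29, with an adjusted p of 0.0838 in limma over all probe sets, so its size depends on the probe set.

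**Figure D3:**
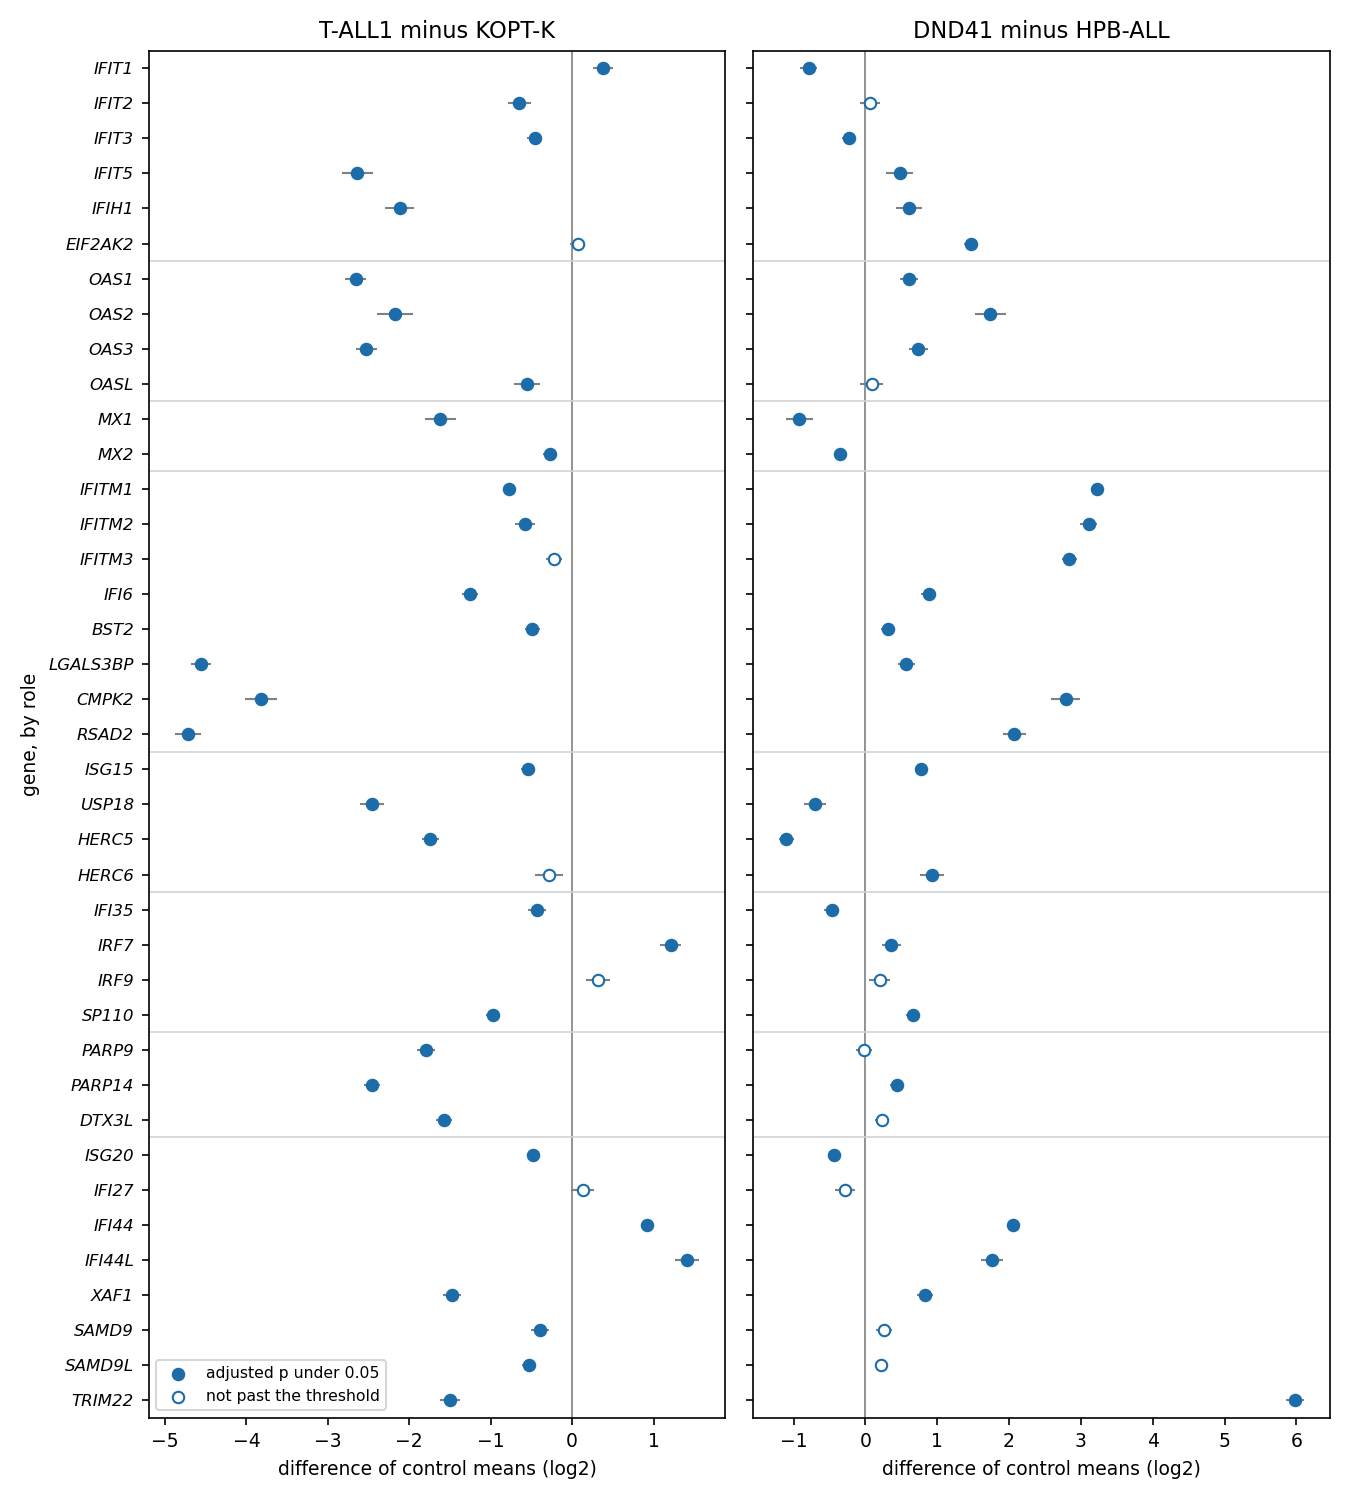
Differences of control means (log2, ± SE from limma) for 39 members, T-ALL1 minus KOPT-K on the left and DND41 minus HPB-ALL on the right, with separate axes; filled points passed an adjusted p of 0.05. Most points lie left of 0 in the first panel (32 of 39) and right of 0 in the second, where TRIM22 is at 5.98.

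The other genes of the pathway were read from a list of receptors, kinases, sensors, factors and inhibitors, of which 35 of 46 were tested. The 8 interferon genes on it with a probe set of their own (IFNA1, IFNA2, IFNB1, IFNG, IFNL1, IFNE, IFNK and IFNW1) did not pass the filter. IFNB1 was at most 4.01 on any array. The receptor chains and the Janus kinase JAK1 reached the filter in every line: the control means of IFNAR1 ran from 8.26 to 9.09, of IFNAR2 from 8.54 to 9.95 and of JAK1 from 10.72 to 11.62. Between T-ALL1 and KOPT-K, 11 of the 35 were higher in T-ALL1 (31.4%; all genes, 30.6%) and 12 lower (34.3%; all genes, 23.6%). IFNAR1 and IFNAR2 were higher in T-ALL1, by 0.73 and 0.50. The largest differences the other way were in SOCS1, which inhibits the Janus kinases (5.93 and 5.15 in T-ALL1, 10.80 and 11.02 in KOPT-K), in TBK1, the kinase that activates IRF3 (4.42 and 3.43 against 9.10 and 9.39), and in TLR3, a receptor for viral RNA (3.50 and 3.26 against 8.04 and 8.14). These were singled out after their values were seen. The T-ALL1 arrays of TBK1, which has 1 probe set, and TLR3 lay below the filter, and the second tested probe set of TLR3 gave -4.13. For SOCS1 the difference was -5.37, and the other probe sets tested gave -3.86 and -0.80, so its size depends on the probe set.

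With NBD the members moved little. On average over the 5 lines, 5 of the 39 fell and 0 rose at a limma adjusted p under 0.05, 12.8% lower where 6.14% of all genes were lower and 2.24% higher. At an unadjusted p under 0.05, 8 were lower and 5 higher (of all 13787 genes, 2038 and 968). The 5 were IFI35, IFITM1, IFITM2, BST2 and ISG20, with average effects of -0.29 to -0.13 on the log2 scale (1.09- to 1.22-fold lower). The median average effect was -0.034 over the members and -0.010 over all genes. Of 195 effects of a member in a line, 0 passed 1 on the log2 scale and 4 passed 0.5.

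IFI35, an interferon-induced leucine zipper protein, fell most. Its control and NBD arrays read 8.19 and 8.35 against 7.85 and 8.10 in CEM, 7.66 and 7.61 against 7.49 and 7.44 in DND41, and 8.11 and 8.10 against 7.65 and 7.75 in HPB-ALL. They read 7.76 and 7.88 against 7.79 and 7.76 in KOPT-K and 7.32 and 7.46 against 6.66 and 7.0 in T-ALL1. The NBD arrays lay below the control arrays in every line except KOPT-K, where they overlapped. Of all genes tested, 28.2% had both NBD arrays below both controls in CEM, 27.8% in DND41 and 29.1% in HPB-ALL. The share was 23.6% in KOPT-K and 24% in T-ALL1. These shares stand beside the same reading of the other members below. The average effect was -0.29 ± 0.05 (SE), with a limma adjusted p of 0.00277.

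The control and NBD arrays of IFITM1 read 10.32 and 10.29 against 9.99 and 10.03 in CEM, 10.77 and 10.83 against 10.78 and 10.71 in DND41, 7.59 and 7.56 against 7.49 and 7.61 in HPB-ALL, 11.57 and 11.49 against 11.38 and 11.19 in KOPT-K, and 10.82 and 10.69 against 10.53 and 10.72 in T-ALL1. Only CEM and KOPT-K showed no overlap. The average effect was -0.15 ± 0.04 (limma adjusted p = 0.0263). IFITM2 read 9.15 and 9.16 against 9.01 and 8.84 in CEM, 9.23 and 9.20 against 9.04 and 8.80 in DND41, 6.01 and 6.20 against 5.72 and 5.99 in HPB-ALL, 8.40 and 8.08 against 8.02 and 8.06 in KOPT-K, and 7.76 and 7.56 against 7.59 and 7.62 in T-ALL1. Its NBD arrays were lower in every line but T-ALL1, where they overlapped the controls. The average effect was -0.21 ± 0.06 (0.0347), and that of the third gene of the cluster, IFITM3, was -0.07 and not called.

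BST2 read 9.17 and 9.08 against 9.01 and 9.18 in CEM, 9.36 and 9.24 against 9.25 and 9.13 in DND41, 9.04 and 8.95 against 8.70 and 8.79 in HPB-ALL, 9.14 and 9.07 against 8.90 and 8.83 in KOPT-K, and 8.49 and 8.74 against 8.42 and 8.52 in T-ALL1. The groups were apart in HPB-ALL and KOPT-K and overlapped in the other lines. The average effect was -0.16 ± 0.04 (limma adjusted p = 0.0338). ISG20, an exonuclease that degrades RNA, read 7.86 and 7.98 against 7.52 and 7.59 in CEM, 7.26 and 7.29 against 7.28 and 7.19 in DND41, 7.77 and 7.68 against 7.53 and 7.66 in HPB-ALL, 7.47 and 7.61 against 7.61 and 7.63 in KOPT-K, and 7.14 and 6.98 against 6.89 and 6.85 in T-ALL1. It was lower in CEM, HPB-ALL and T-ALL1 and overlapped elsewhere. The average effect was -0.13 ± 0.04 (0.041), and a second ISG20 probe set gave -0.05.

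**Figure D4:**
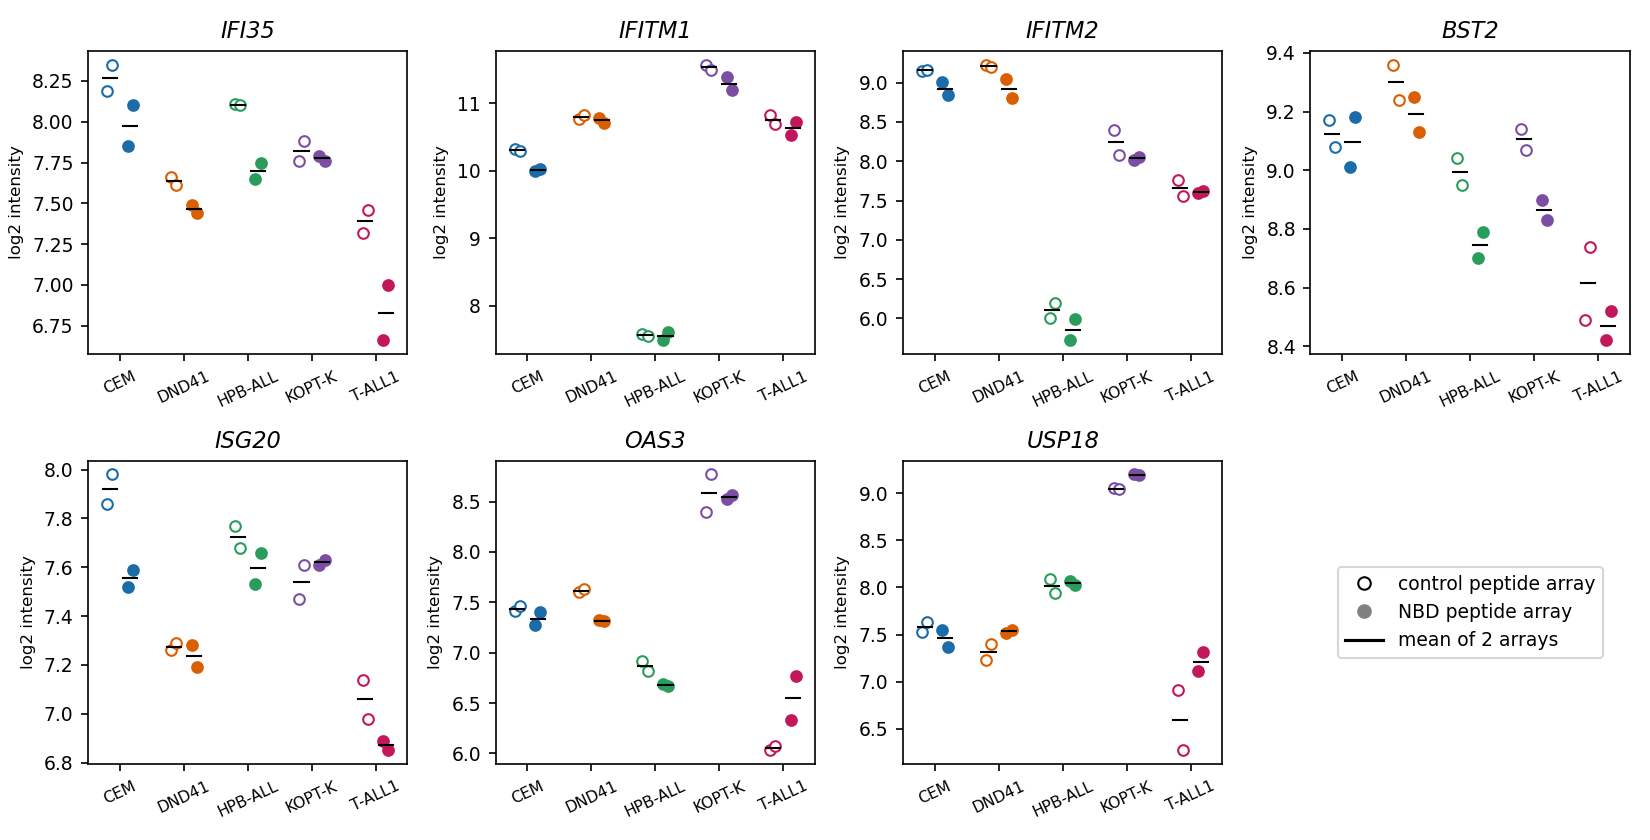
Log2 intensity of the 7 members called with NBD, on average (IFI35, IFITM1, IFITM2, BST2, ISG20) or in T-ALL1 (IFI35, OAS3, USP18), on each array (open, control; filled, NBD; bars, mean of 2 arrays), with an axis of its own in each panel that does not start at 0. For all 7 the widest difference of control means within a set of lines exceeds the largest difference between peptides, for IFI35 by little (0.63 against 0.56).

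The limit of these calls is the number of arrays and lines. With the 5 lines as replicates no gene of the 13787 tested was called (lowest adjusted p 0.126 in limma), so 0 members were (lowest 0.179). In that fit 5 were lower and 3 higher at an unadjusted p under 0.05 (of all 13787 genes, 1157 and 482). With the actin difference as a covariate 2 members were called lower and 5 higher. Shares over all genes were not counted in that fit or without single arrays or lines, so these counts have no background beside them. IFI35 kept its call without any single array or line, with adjusted p up to 0.0337 (without HPB-ALL), whereas the calls of IFITM1, BST2, IFITM2 and ISG20 ended without 7, 9, 14 and 15 of the 20 arrays, with adjusted p up to 0.0668, 0.0803, 0.0812 and 0.0979. Without T-ALL1 control array 2 the count was 8 lower, and without KOPT-K NBD array 2, DND41 NBD array 2 or HPB-ALL NBD array 1 it was 1, IFI35.

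By role, the called falls were 3 of 8 in the membrane-associated and linked group and 1 of 4 in the transcription group. The latter was IFI35, grouped there with IRF7, IRF9 and SP110. ISG20, among the remaining genes, was the other called fall (all genes, 6.14% lower). All 8 genes of the membrane-associated and linked group had average effects below 0, from -0.21 to -0.07. LGALS3BP was below 0 in all 5 lines (average -0.14, limma adjusted p = 0.14) without being called. None of the 4 OAS genes, 2 MX genes, 6 IFIT and RNA-binding genes, 4 genes of the ISG15 group, or the trio of PARP9, PARP14 and DTX3L was called on average. MX1 and IFIH1 were above 0 in all 5 lines, at 0.19 and 0.16 on average, with adjusted p of 0.215 and 0.266. The nearest to the threshold were IFI44 (-0.11, 0.0682) and HERC5 (0.14, 0.0807). IRF9 (0.17) and IRF7 (0.15) had adjusted p of 0.14 and 0.15.

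**Figure D5:**
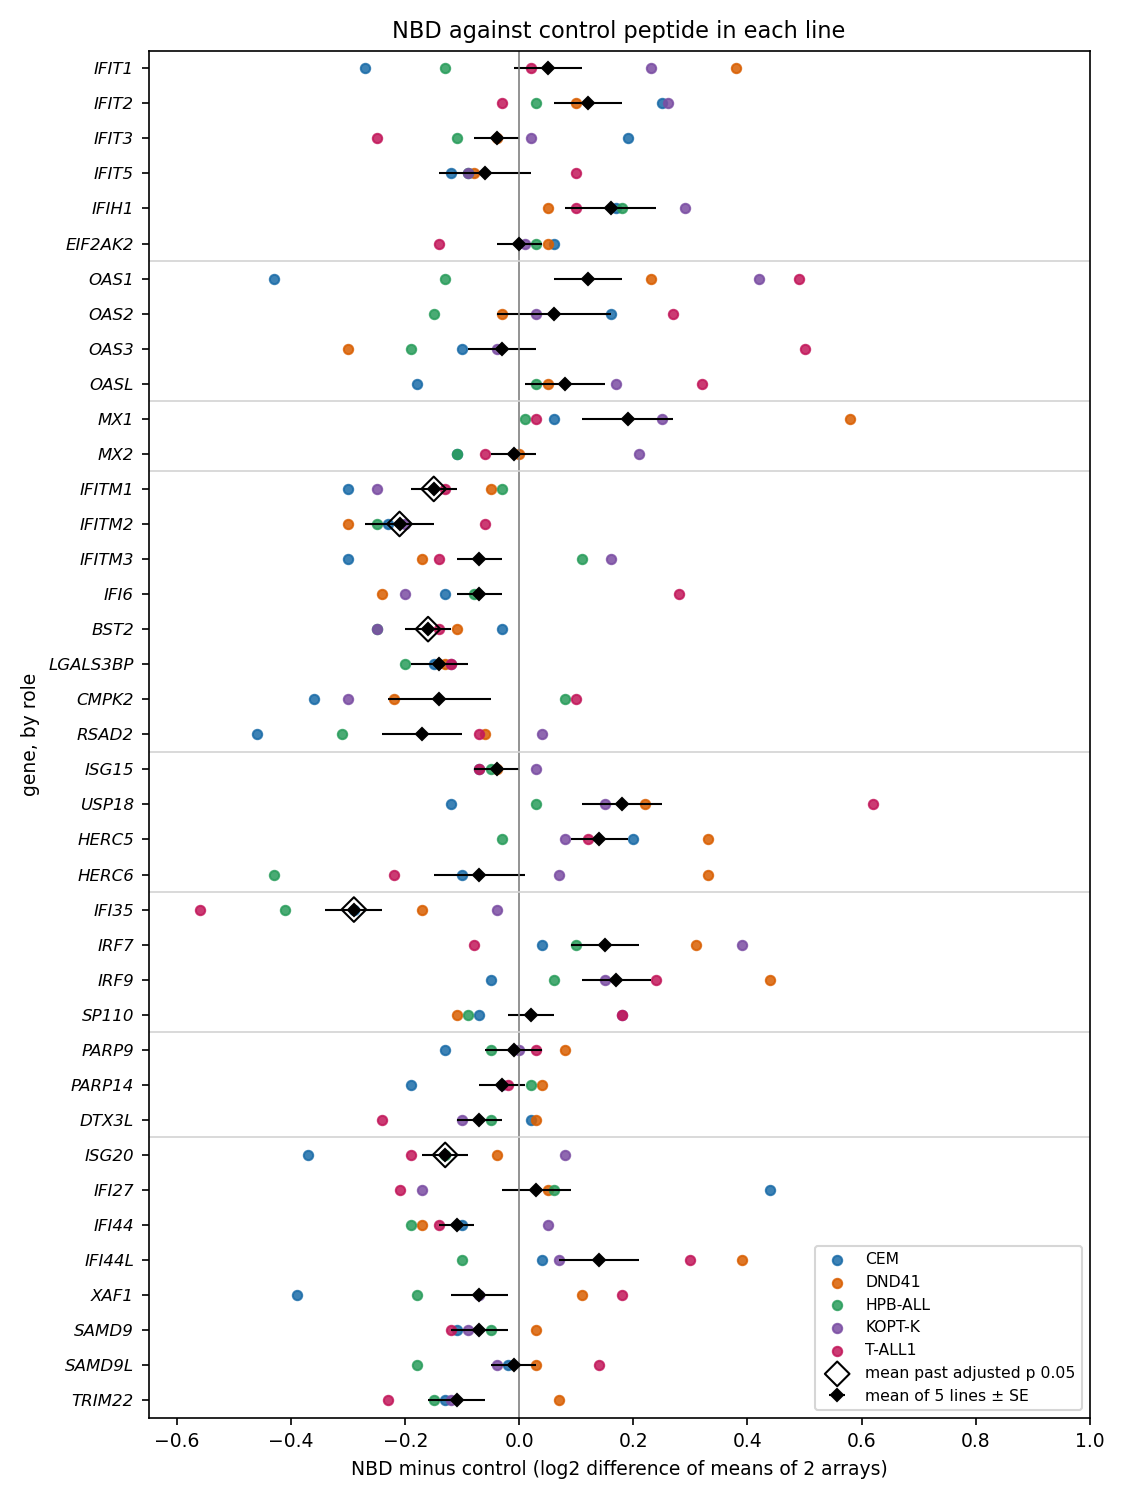
NBD minus control (log2) for 39 members in each of 5 lines (coloured points, differences between means of 2 arrays) and averaged over the lines (black diamonds ± SE from limma; large open diamonds, adjusted p under 0.05). All points lie between -0.56 (IFI35 in T-ALL1) and 0.62 (USP18 in T-ALL1), and for most genes lines lie on both sides of 0.

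Within single lines few members passed. In CEM 1 of 39 did, ISG20, which fell by 0.37 ± 0.08 (limma adjusted p = 0.0468; all genes, 0.74% lower and 0.392% higher). The median member effect in CEM was -0.110, with 28 of 39 below 0 (all genes, -0.012, with 7335 of 13787 below 0). In T-ALL1 1 fell and 2 rose (all genes, 2.3% lower and 1.15% higher). No member was called in DND41 (all genes, 1.74% lower and 0.733% higher), HPB-ALL (0.646% and 0.138%) or KOPT-K (0.384% and 0.892%), where the lowest limma adjusted p were 0.133, 0.137 and 0.188. At an unadjusted p under 0.05, 4 were lower and 6 higher in DND41, 4 and 0 in HPB-ALL, and 2 and 3 in KOPT-K. Of all 13787 genes, 1227 were lower and 799 higher in DND41, 1078 and 361 in HPB-ALL, and 816 and 815 in KOPT-K. The median member effects there were 0.035, -0.087 and 0.026, and that in T-ALL1 was -0.035. Over all genes the medians were -0.017, -0.014, -0.012 and -0.012 in the same order. The ISG20 call in CEM ended without any one of 16 of the 20 arrays, the highest adjusted p being 0.454 without CEM control array 2.

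The T-ALL1 changes were in IFI35, OAS3 and USP18. IFI35 fell by 0.56 ± 0.11 (limma adjusted p = 0.0204) on the arrays given above. OAS3 read 6.03 and 6.07 on the control arrays and 6.33 and 6.77 on the NBD arrays, both NBD values being above both controls, a rise of 0.50 ± 0.13 (1.42-fold, 0.0468). USP18 read 6.91 and 6.27 against 7.11 and 7.31, again without overlap, a rise of 0.62 ± 0.15 (1.54-fold, 0.0421). Of all genes tested, 18.7% had both NBD values above both controls in T-ALL1. OAS1 gave 0.49 with an adjusted p of 0.063. The actin differences fell from 3.16 and 2.05 in the control arrays to 1.07 and 0.99 with NBD in this line, and their part in these changes was not tested within it. The calls of OAS3 and USP18 ended without any one of 16 and 17 of the 20 arrays. Without T-ALL1 NBD array 2 OAS3 gave 0.28 (0.232), without T-ALL1 control array 2 USP18 gave 0.30 (0.0645), and without T-ALL1 NBD array 1 IFI35 gave -0.38 (0.227).

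In the other 4 lines OAS3 was not called. It read 7.60 and 7.63 against 7.32 and 7.31 in DND41, 6.92 and 6.82 against 6.69 and 6.67 in HPB-ALL, 7.41 and 7.46 against 7.27 and 7.40 in CEM, and 8.40 and 8.77 against 8.53 and 8.57 in KOPT-K. The NBD arrays were lower in DND41, HPB-ALL and CEM and lay within the control range in KOPT-K, with effects of -0.30, -0.19, -0.10 and -0.04 and limma adjusted p of 0.276, 0.692, 0.776 and 0.954. USP18 read 7.53 and 7.63 against 7.55 and 7.37 in CEM, 7.23 and 7.40 against 7.52 and 7.55 in DND41, 8.09 and 7.94 against 8.07 and 8.03 in HPB-ALL, and 9.06 and 9.04 against 9.20 and 9.19 in KOPT-K. Tested over the 5 lines with a moderated F-test, the NBD effect differed between lines for 0 of 39 members (all genes, 1.83%). Of the members, 11 had an unadjusted p under 0.05 in that test (of all 13787 genes, 2323). OAS1 came nearest (limma adjusted p = 0.0571), with effects of -0.43 in CEM, 0.23 in DND41, -0.13 in HPB-ALL, 0.42 in KOPT-K and 0.49 in T-ALL1, and OAS3 followed (0.11).

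Of the 35 pathway genes, 1 fell on average with NBD and 0 rose: PTPN6, a phosphatase that restrains Janus kinase signalling, by 0.33 ± 0.05 (limma adjusted p = 0.00218). A further list of 49 interferon-stimulated genes outside the 40 held 1 that rose (2.04%) and 3 that fell (6.12%). Of all genes 2.24% rose and 6.14% fell, so both lists lay at or below the background. GBP2, a GTPase that guards against intracellular microbes, rose by 0.39 ± 0.04 on average (1.52e-04). It read 4.36 and 4.33 against 5.30 and 5.49 in KOPT-K, well apart, a difference of 1.05 (3.70e-05), and a second probe set gave 1.15. The KOPT-K control means of both probe sets, 4.34 and 3.39, lay below the filter, so the size of this difference is that of the deposited values and not of a well-measured low level. It also rose in CEM, by 0.49 (0.0287), and gave -0.15 in HPB-ALL without a call. The immunoproteasome subunits PSMB8 and PSMB9 fell by 0.22 and 0.21 (0.00277 and 0.00587), and TRIM14, an adaptor of antiviral signalling, fell by 0.41 (0.00298). The other two TRIM14 probe sets tested gave -0.29 and -0.30 and were not called (adjusted p = 0.111 and 0.0769 in limma over all probe sets). Beside these falls, 5 of 11 T lineage markers fell, CD3D by 0.45 (1.50e-06), and the part of that in the other changes was not tested. As among the 39 members, most of these 49 genes were lower in T-ALL1 than in KOPT-K, 35 lower and 4 higher (71.4% and 8.16%).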

How the data were processed

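Affymetrix U133 Plus 2.0 arrays measured total RNA of 5 T-ALL lines after control or NBD peptide. The authors deposited 1 linear intensity per probe set (54675) and array, made with RMA per the submitters' processing notes, whose version is not given in the sources used here. The columns differ in decimals and scale between T-ALL1 with KOPT-K (mean intensity 386.9 to 396.1) and the other 3 lines (341.0 to 347.7), so they appear to come from 2 normalizations. The number of arrays limits the precision, since an array has no read depth. Separate cultures behind the 2 arrays of a group are not stated in the labels, so the p-values cover the spread between arrays alone, and that spread may be technical.

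Intensities were taken to log2 with no pseudocount. Probe sets were named by the platform annotation: 41097 had 1 symbol (41043 matched a gene table of GRCh38.p14 by Entrez ID), 1801 had several and 11777 none, and only the first were used. A gene's probe set was that with the highest mean over the 20 arrays, and genes at or above the median of all values (log2 5) on at least 2 arrays were tested. limma 3.58.1 in R 4.3.3 (lmFit, eBayes) was fitted with 1 mean per group over all 20 arrays (10 residual and 3.42 prior degrees of freedom), with Benjamini-Hochberg adjustment over 13787 genes at 0.05. Contrasts were NBD minus control in each line, their mean with equal weight (the average effect), a moderated F-test of the difference between lines, and control levels within each set of lines. The procedure was tested on simulated data. The alternatives were other scalings, filters, probe set rules and priors, arrays or lines left out, and blocks, and the closing section gives their effect.

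The members, the other lists and the markers were chosen with earlier results of these data known. Named with per-array values were the members called on average or in a line, the 3 with the largest range among CEM, DND41 and HPB-ALL and the 3 with the largest T-ALL1 minus KOPT-K difference. IFIT3 was added after its values were seen. From each other list up to 4 called genes were named. Promoter windows came from RefSeq and were searched with plain pattern matching.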

Additional observations from a re-analysis of the deposited data

How the results depend on the processing

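The members called lower on average (5) became 3 with quantile normalization, 2 with no filter, 2 with the actin difference as a covariate, 0 with lines as replicates and 0 when only KOPT-K and T-ALL1 were fitted. Leaving out CEM, DND41 or HPB-ALL gave 2 each, leaving out KOPT-K 3 and T-ALL1 8, and single arrays 1 to 8. The members called higher on average (0) became 2 with quantile normalization (HERC5 and USP18), 1 with a trended robust prior and 5 with the actin covariate. They became 1 without CEM, 3 without T-ALL1 and 2 in CEM, DND41 and HPB-ALL alone, and 0 to 4 without single arrays. In CEM the 1 call became 0 with quantile normalization, median centring, no filter, the mean of all probe sets and a trended robust prior, and 0 to 1 without single arrays. In T-ALL1 the 3 calls became 1 with median centring and 1 with no filter, and 1 to 8 without single arrays. DND41 and KOPT-K had 0 to 1 and HPB-ALL 0 when single arrays were left out. The effect differed between lines for 1 member (OAS1) with a stricter filter, the mean of all probe sets or a trended robust prior, and for 0 to 2 without single arrays. The cause of these changes was not tested. With lines as replicates no gene tested was called, and for the other alternatives shares over all genes were not counted. Their counts therefore have no background beside them. With the replicate block the counts were 1 on average (IFI35), 0 in CEM and 1 in T-ALL1. Deviations of arrays with the same number correlated at -0.28 to 0.14 within lines, so the numbers were not taken to pair the arrays. The level counts (35 of 39 and 34 of 39) stayed within 1.5 times under all alternatives run, a limit that only a fall could have passed. Signs were followed for the called NBD effects and for the 3 members with the largest level differences in each set of lines. None of those changed sign. Among the smaller level differences some did, such as EIF2AK2 in T-ALL1 minus KOPT-K, at 0.07 on the control arrays and -0.07 on the NBD arrays.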

Other observations

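A probe set named for both IFITM2 and IFITM1 was used in no comparison above. Its control mean was 7.43 in HPB-ALL, 10.21 in CEM, 10.67 in DND41, 10.78 in T-ALL1 and 11.48 in KOPT-K (log2). Its NBD minus control difference was below 0 in each line, -0.18 in CEM, -0.02 in DND41, -0.06 in HPB-ALL, -0.32 in KOPT-K and -0.22 in T-ALL1, and it was not tested.

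CXCL10 and CXCL11, interferon-induced chemokines, stayed below the filter on low values in these lines. Of IFIT5, a second probe set was lower with NBD on average (-0.22, adjusted p = 0.0147 in limma over all 26260 probe sets tested), while the probe set that stands for the gene gave -0.06.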
